A study of Mus musculus with 3 samples.

Results

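The transcripts described here are the tdTomato reporter that marked the cells, the gene Efhd1 whose activity switches that reporter on, and 7 genes used to recognise telocytes: Cd34, Pdgfra, Pdgfrb, Kit, Foxl1, Gli1 and Tek. All 9, matched by name, were found among the 56833 genes of the deposited table. Cells came from the ankle synovium of mice of the genotype Efhd1CreER; Ai9, were sorted for tdTomato, and then spent 24 h on plates coated with collagen, whose stiffness was 0.2 kPa (called soft here), 8 kPa (intermediate) or 64 kPa (stiff). All 3 groups share the genotype, the sort and the collagen coating, and the study asked whether matrix stiffness acts on these cells and on their turning into fibroblasts. The animals' age and sex, how many animals were pooled, whether the plates were filled from a common sort, and when the Cre ligand was given are not given in the sources used here. Each plate stiffness had 1 library of stranded, poly(A)-selected RNA, so the spread between cultures is unknown for every difference below.

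Telocytes are interstitial cells of connective tissue, known for very long, thin processes that run between vessels, nerves and other cells. No one gene defines them. CD34 together with PDGFRα is the usual pair, KIT, PDGFRβ and TIE2 (the product of Tek) are used in some organs, and FOXL1 and GLI1 mark the subepithelial telocytes of the gut, which feed Wnt and BMP signals to the epithelium. In an Efhd1CreER; Ai9 mouse, a Cre recombinase that needs a ligand is made under the control of Efhd1, and it removes a stop sequence before tdTomato at the Rosa26 locus. From then on the reporter is transcribed from its own strong promoter in the cell and in all its descendants, whether or not Efhd1 is still active.

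Values are normalized counts, that is, reads divided by a size factor of the library, and 1 read was worth 1.03 of them for the soft, 0.943 for the intermediate and 1.03 for the stiff plate. The libraries held 25487064, 28081600 and 26474862 reads in that order. Ratios are log2 ratios with a pseudocount of 1, which understates the change of low genes, and their 95% intervals are exact Clopper-Pearson intervals from the reads, without the pseudocount. Such intervals hold counting error alone, because reads copied from 1 molecule by amplification are not independent and the spread between cultures was not measured. A count of 0 allows up to 3 reads. In bulk RNA, fewer cells of a type and less RNA per cell cannot be told apart. Of the 9 transcripts, 5 had a mean of at least 50 normalized counts over the 3 libraries (tdTomato, Pdgfrb, Pdgfra, Cd34 and Foxl1), and 4 lay below it (Kit, Tek, Gli1 and Efhd1).

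**Figure D1:**
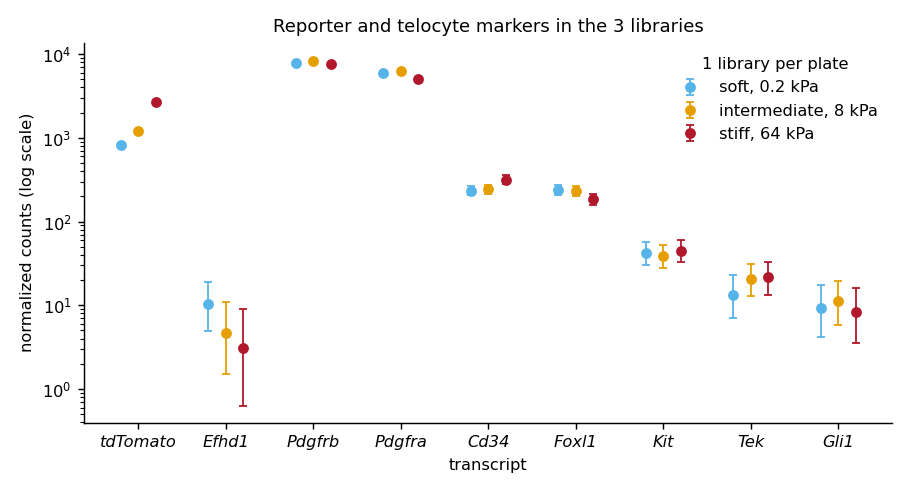
Normalized counts (log axis) of the 9 transcripts on soft, intermediate and stiff plates, 1 point per library with its exact 95% Poisson interval. The reporter climbs from 818 to 2668 normalized counts, the PDGF receptors stay between 5118 and 8354, and Efhd1 lies at 10.3 or below in every library.

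Of the 5 transcripts that averaged 50 or more normalized counts the reporter had the largest stiff to soft difference on the log2 scale; among the other 4, at few reads, the ratio of Efhd1 was -1.46 with the pseudocount of 1 and -1.74, larger in size, without it. tdTomato stood at 818 normalized counts on the soft plate, 1193 on the intermediate and 2668 on the stiff plate, from 798, 1265 and 2602 reads. Each step of stiffness went with a higher value, and the counting intervals of the 3 libraries do not overlap (762 to 877, 1128 to 1260 and 2567 to 2773 normalized counts). Since the cells were sorted for tdTomato before plating, that it is present is no result; only its differences between plates are described.

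Between stiff and soft the log2 ratio of tdTomato was 1.70, with a counting interval from 1.59 to 1.82, or 3.26-fold. Among the 11873 genes that averaged 50 or more normalized counts, only 36, tdTomato included, had a ratio as high, which is 0.303% of them. At a size rule of 1 on the log2 scale, tdTomato was the only one of the 5 transcripts with a mean of at least 50 to pass, while 3.6% of all 11873 genes passed in either direction and 3.22% were higher. The soft to intermediate step gave a ratio of 0.54 (0.41 to 0.67) and 31.9% of the whole log2 change. None of the 5 transcripts passed the size rule there, where 0.168% of all genes did. The step from intermediate to stiff gave 1.16 (1.06 to 1.26), again with tdTomato alone past the rule against 1.25% of all genes. At both steps tdTomato was higher by at least 0.5, which held for 123 of the 11873 genes, or 1.04%.

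Reads of one transcript set against reads of another in the same library need no scaling between libraries. Per read of Gt(ROSA)26Sor, the noncoding transcript of the locus that carries the reporter, there were 0.338 reads of tdTomato on the soft plate, 0.519 on the intermediate and 1.24 on the stiff plate. Per read of the neighbouring Thumpd3 there were 1.13, 1.74 and 3.65, and per read of Setd5, the neighbour on the other side, 0.713, 0.927 and 1.87. Against all 3 genes of the locus the reporter was higher at each step, by 2.63-fold to 3.67-fold over the whole range. The genes themselves had stiff to soft log2 ratios of -0.17, 0.01 and 0.31, or 0.03, 0.12 and 0.09 once the trend of ratios with transcript length and GC content in these libraries was subtracted. That fitted trend ran from -0.55 to 1.26 over 11674 genes. It could not be subtracted from tdTomato, which has no transcript in the annotation, so the reporter's ratios are as counted.

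Against the PDGF receptors, the 2 most abundant of the markers, the reporter also gained. There were 0.105 tdTomato reads per Pdgfrb read on the soft plate, 0.143 on the intermediate and 0.345 on the stiff plate. Per Pdgfra read the values were 0.139, 0.189 and 0.521. The reporter thus stood 3.28-fold and 3.75-fold higher in the stiff than in the soft library relative to Pdgfrb and Pdgfra.

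Macrophage genes moved in the same direction as the reporter. All 12 genes of a macrophage list (Adgre1, Cd68, Csf1r, Lyz2, Cd14, Fcgr3, C1qa, C1qb, C1qc, Mrc1, Itgam and Ptprc) had reads in every library, and their summed level was 30226 normalized counts on the soft plate, 37150 on the intermediate and 64921 on the stiff plate. Of the 12, 9 passed the size rule upward between stiff and soft, beside 3.22% of all 11873 genes. The ratios of the 12 ran from 0.31 for Cd14 to 1.49 for C1qa. The ratio of tdTomato, 1.70, was above each of them, although the interval of C1qa, 1.31 to 1.68, reaches into that of tdTomato. Per read of the whole list there were 0.0271 reads of tdTomato on the soft plate, 0.0321 on the intermediate and 0.0411 on the stiff plate, 1.52-fold more in stiff than in soft. The part of macrophage RNA in the reporter's difference was not tested.

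**Figure D2:**
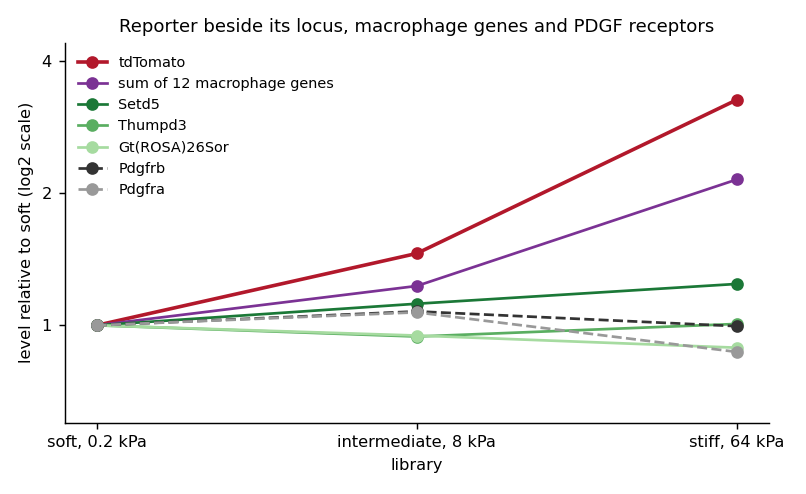
Level of each transcript divided by its level in the soft library (log2 axis) across the 3 libraries, for tdTomato, the sum of 12 macrophage genes, 3 genes at the Rosa26 locus and the PDGF receptors. tdTomato ends highest, the macrophage sum ends at 2.15 times its soft level, and the other 5 lines stay between 0.87 and 1.24 times theirs.

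Likeness of pattern was measured as the distance between pairs of log2 ratios (intermediate to soft, stiff to soft), over 3 libraries and 11483 named genes. The nearest to tdTomato were Adap1, Itgal and Rab11fip1, at distances of 0.045, 0.082 and 0.11. Only 2 genes lay within 0.1 of tdTomato. Within the same distance lay 222 genes for Cd34, 450 for Pdgfra, 464 for Foxl1 and 965 for Pdgfrb, so their nearest genes say little. They were Leo1, Arl10 and Cflar for Cd34, Smox, Kiz and Lxn for Pdgfra, Rbmx, Atg13 and Mgarp for Pdgfrb, and Abhd5, Bmi1 and Hint3 for Foxl1.

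Efhd1 encodes a calcium-binding EF-hand protein of mitochondria, and its activity is what the reporter was built to record. Efhd1 had 10 reads on the soft plate, 5 on the intermediate and 3 on the stiff plate, or 10.3, 4.71 and 3.08 normalized counts. The values fall in the order of stiffness, but their Poisson intervals overlap (4.92 to 18.9, 1.53 to 11.0 and 0.634 to 8.99). The stiff to soft log2 ratio was -1.46, and its counting interval, from -4.24 to 0.22, includes 0, so no difference was detectable at this depth. The intermediate to soft interval, from -3.02 to 0.56, includes 0 as well. Per kilobase of its canonical transcript (1912 bases, 4 exons), Efhd1 lay above only 26.6% of the genes with a read on the soft plate, 18.9% on the intermediate and 13.4% on the stiff plate. The reporter and the gene that switched it on thus had point values that went opposite ways along the stiffness range. Efhd2, the close relative of Efhd1, had 2692, 2927 and 3378 normalized counts in the 3 libraries, and a stiff to soft ratio of 0.33 (0.25 to 0.40).

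On GRCm39 Efhd1 spans bases 87192031 to 87238565 of chromosome 1, plus strand, and GRCm39 is the build that the submitters' processing notes name. The first 898 bases of the gene are overlapped on the other strand by the noncoding Efhd1os, which had 0 reads in every library. The strand setting of the read counting is not given, so whether reads of the overlap were left uncounted for both genes was not tested. The sequence before the start of Efhd1 is shown because the reporter was built to record the activity of this gene. It is the RefSeq promoter entry (table build GRCm38.p6), matched exactly at 1 place of GRCm39, chr1:87191825-87192030, plus strand, up to the first annotated exon. Capitals mark GC boxes (GGGCGG on either strand):
Efhd1: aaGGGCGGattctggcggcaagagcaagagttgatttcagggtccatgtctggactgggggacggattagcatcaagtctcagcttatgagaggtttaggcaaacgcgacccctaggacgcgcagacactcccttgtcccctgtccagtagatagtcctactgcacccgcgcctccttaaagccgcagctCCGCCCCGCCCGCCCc
The 250 bases before the RefSeq start hold 4 GC boxes, 3 of them overlapping on the minus strand, and 19 CpG dinucleotides, with 60.8% G and C. Of 32851 such windows in the table, 32.7% hold a GC box, and the medians are 6 CpG and 52.4% G and C. On either strand the window held no TATA box (TATAAA, in 12.4% of all windows), no CCAAT box (33.8%), no TEAD motif (GGAATG, 12.6%) and no GLI motif (GACCACCCA, 0.225%).

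Pdgfrb and Pdgfra encode the receptor tyrosine kinases for platelet-derived growth factors, the main mitogens of connective tissue cells. Pdgfrb stood at 7766 normalized counts on the soft plate, 8354 on the intermediate and 7732 on the stiff plate. Soft and stiff did not differ beyond counting error, with a log2 ratio of -0.01 (-0.05 to 0.04), and the intermediate library was the highest, by 0.11 (0.06 to 0.15) over soft. Pdgfra stood at 5884, 6298 and 5118 normalized counts in the same order. It too was highest in the intermediate library, by 0.10 (0.05 to 0.15) over soft. It was lowest in the stiff one, with a stiff to soft ratio of -0.20 (-0.26 to -0.15) and a stiff to intermediate ratio of -0.30 (-0.35 to -0.25). These differences are far under the size rule.

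Ratios in these libraries follow the length and GC content of transcripts, and the values of both receptors move when that trend is subtracted. The stiff to soft ratio was then -0.28 for Pdgfrb and -0.31 for Pdgfra, and the intermediate to soft ratios were -0.05 and 0.04, so that for Pdgfrb the sign of the latter turned. Pdgfra reads per Pdgfrb read were 0.758 on the soft plate, 0.754 on the intermediate and 0.662 on the stiff plate. The intervals of soft and stiff, 0.732 to 0.784 and 0.639 to 0.686, do not overlap as counted, but with the trend subtracted the receptors' stiff to soft ratios differ by little.

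Among the other genes of the PDGF system, the ligands Pdgfa, Pdgfb, Pdgfc and Pdgfd and the receptor-like Pdgfrl, 1 passed the size rule between stiff and soft. Of all 11873 genes 3.6% did. Pdgfb, a ligand that binds both receptors, had 41.0, 58.4 and 85.1 normalized counts on soft, intermediate and stiff plates. The libraries were in the order of stiffness, with a stiff to soft ratio of 1.04 (0.49 to 1.64), which was 0.85 and under the rule with the trend subtracted. Pdgfc, a ligand of PDGFRα, was the most abundant ligand by counts, with 1855, 1762 and 1437 normalized counts and a stiff to soft ratio of -0.37 (-0.47 to -0.27). Pdgfa and Pdgfd had intervals that include 0. Pdgfrl had the lowest stiff to soft ratio of the system as counted, -0.40 (-0.67 to -0.14), or -0.29 with the trend subtracted. Over all 7 genes of the system, receptors included, the median stiff to soft ratio was -0.04, with 2 higher and 5 lower, beside a median of 0.00 over the 14291 genes averaging 10 or more. Without the trend that median was -0.28, with 3 higher and 4 lower.

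**Figure D3:**
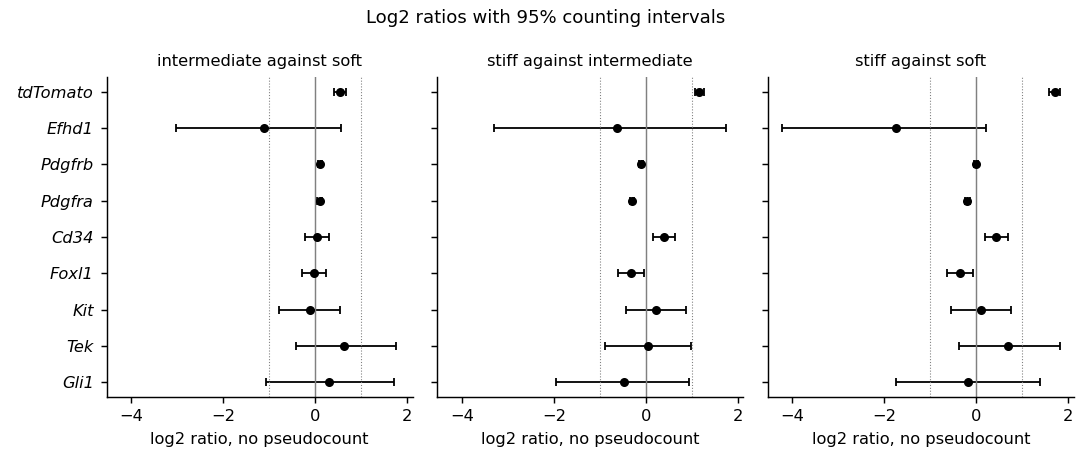
Log2 ratios without a pseudocount (horizontal axes) of the 9 transcripts in the 3 comparisons, with exact 95% counting intervals; dotted lines mark the size rule of 1. Only tdTomato lies wholly past the rule, between stiff and intermediate and between stiff and soft, and the intervals of Efhd1, Kit, Tek and Gli1 include 0 in all 3 comparisons.

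Cd34 encodes a sialomucin of progenitor, endothelial and interstitial cells and is the most widely used telocyte marker. It stood at 235 normalized counts on the soft plate, 242 on the intermediate and 318 on the stiff plate. Soft and intermediate did not differ beyond counting error (0.05, from -0.22 to 0.31), and the stiff library was higher, by 0.44 (0.19 to 0.69) over soft and by 0.39 (0.15 to 0.64) over intermediate. Without the trend in length and GC content the stiff to soft ratio was 0.47. Of the 11873 genes, 14.0% had a stiff to soft ratio at least as high as that of Cd34. Cd34 and Pdgfra, the pair used together to recognise telocytes, went opposite ways between soft and stiff, from 0.0399 to 0.0621 Cd34 reads per Pdgfra read. Of the relatives of Cd34, Podxl2 had a ratio of -0.01 (-0.38 to 0.36), and Podxl had 6, 8 and 11 reads.

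Foxl1 encodes a forkhead transcription factor that marks telocytes of the gut, and it is a gene of 1 exon on chromosome 8. It stood at 238 normalized counts on the soft plate, 233 on the intermediate and 186 on the stiff plate. The stiff library was the lowest, with ratios of -0.36 (-0.65 to -0.07) to soft and -0.33 (-0.61 to -0.04) to intermediate, and soft and intermediate did not differ beyond counting error. With the trend subtracted the stiff to soft ratio was -0.46. Its forkhead neighbours on chromosome 8 had values on the other side of 0: Foxc2 had a stiff to soft ratio of 0.30 (0.17 to 0.44) and Foxf1 of 0.28 (-0.03 to 0.59). With the trend subtracted Foxc2 stood at 0.14 and Foxf1 at 0.23. The members with a mean of at least 50 other than tdTomato thus split, with 1 of 4 higher (Cd34) and 3 of 4 lower between stiff and soft, and a median of -0.10. Of the lower ones Pdgfrb was within counting error of 0.

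**Figure D4:**
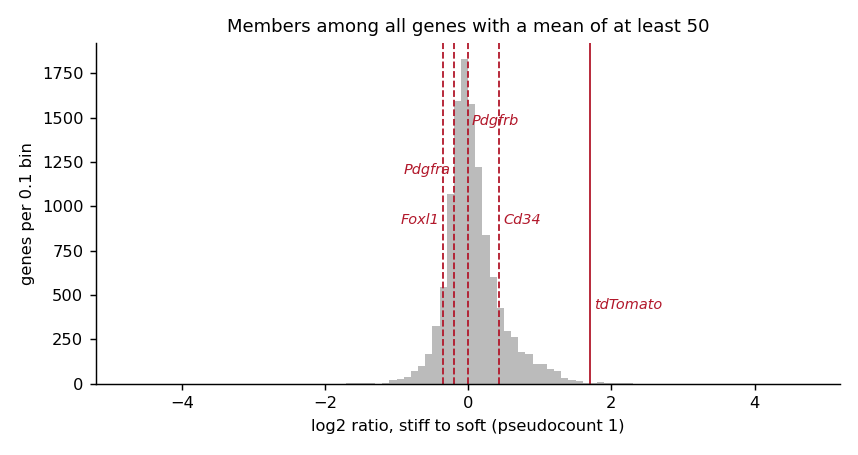
Histogram of the stiff to soft log2 ratios (pseudocount 1) of the 11873 genes averaging 50 or more normalized counts, in bins of 0.1, with vertical lines at the 5 members among them. tdTomato at 1.70 lies in the upper tail, and Foxl1, Pdgfra, Pdgfrb and Cd34 lie between -0.36 and 0.44, in the body of the distribution.

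Kit encodes the receptor of stem cell factor and is known from mast cells, melanocytes and the interstitial cells of Cajal. Reads numbered 41 on the soft plate, 41 on the intermediate and 44 on the stiff plate, or 42.0, 38.7 and 45.1 normalized counts. The stiff to soft ratio was 0.10, from -0.54 to 0.75, so a difference was not detectable at this depth. Its ligand Kitl was far more abundant, with 2199, 1924 and 2769 normalized counts, and differed beyond counting error, by -0.19 (-0.28 to -0.10) between intermediate and soft and 0.33 (0.25 to 0.41) between stiff and soft. Of the other 8 genes of a mast cell list, 5 had no read in any library (Cpa3, Tpsb2, Tpsab1, Fcer1a and Ms4a2), and Hdc, Mcpt4 and Cma1 had at most 4 reads. Of the markers of interstitial cells of Cajal, Ano1 had 26.7, 46.2 and 51.3 normalized counts, and Etv1 575, 593 and 460.

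Kit and Pdgfra are neighbours on chromosome 5, with Pdgfra at 75311994 to 75358876 and Kit at 75735576 to 75817404, both on the plus strand and 376699 bases apart. Per kilobase of canonical transcript Pdgfra was 112-fold (82.2 to 156) above Kit on the soft plate, 130-fold (95.8 to 181) on the intermediate and 90.5-fold (67.3 to 125) on the stiff plate. The sequences before their RefSeq starts are shown because these neighbouring genes of 1 receptor family differ so far in level. They match GRCm39 exactly, at chr5:75312662-75312833 and chr5:75735401-75735575, plus strand. The Kit stretch ends where the annotated gene begins, whereas the Pdgfra stretch lies inside the annotated gene, between its outermost first exon and a later one at which the stretch ends. For Kit the second of the starts in the table was used, and capitals again mark GC boxes:
Pdgfra: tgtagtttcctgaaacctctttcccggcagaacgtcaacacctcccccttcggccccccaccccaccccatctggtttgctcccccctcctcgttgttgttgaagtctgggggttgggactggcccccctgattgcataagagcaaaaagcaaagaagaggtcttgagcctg
Kit: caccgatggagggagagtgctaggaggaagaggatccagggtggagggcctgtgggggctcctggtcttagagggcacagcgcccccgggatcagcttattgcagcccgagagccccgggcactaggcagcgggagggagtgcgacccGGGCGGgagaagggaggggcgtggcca
The 250-base window of Kit, the low gene, holds 18 CpG, 70.8% G and C and 1 GC box, and that of Pdgfra, the high gene, holds 4 CpG, 54.4% G and C and no GC box. Neither holds the letters of the other 4 motifs. The table had windows for 5 of the 8 genes (Efhd1, Cd34, Tek, Pdgfra and Kit) and was not searched further for Pdgfrb, Foxl1 and Gli1.

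Tek encodes TIE2, the receptor of the angiopoietins, best known from endothelium. Reads numbered 13 on the soft plate, 22 on the intermediate and 21 on the stiff plate. The ratios of 0.60 (intermediate to soft) and 0.65 (stiff to soft) have intervals from -0.41 to 1.75 and from -0.37 to 1.81, which include 0. Among the ligands, Angpt1, the main activator of TIE2, had 327, 330 and 328 normalized counts and did not differ between libraries beyond counting error. Angpt4 had 780, 707 and 532, with a stiff to soft ratio of -0.55 (-0.72 to -0.39), and Angpt2, the ligand that can block TIE2, had 29, 35 and 27 reads. The other genes of an endothelial list were low too: Cldn5 had no read, and Cdh5, Tie1, Emcn, Pecam1 and Vwf had at most 14 reads. The whole list of 9, Tek included, summed to 178, 225 and 199 normalized counts. The largest share of that sum was Egfl7, at 121, 146 and 111, with a stiff to soft ratio of -0.13 (-0.52 to 0.26). Kdr, a receptor of vascular endothelial growth factor, had 21, 27 and 45 reads, and its stiff to soft ratio of 1.07 has an interval, 0.32 to 1.92, above 0. The 4 endothelial genes averaging 10 or more were Tek itself, Kdr, Vwf and Egfl7. Between stiff and soft 3 of these were higher, Tek among them, and 1 lower. Their median, which Tek's own ratio enters, was 0.86, or 0.60 with the length and GC trend subtracted. One of the 3 was Vwf, with 5, 13 and 14 reads, and below that mean the reads of Pecam1 (12, 13 and 4) and Cdh5 (5, 3 and 0) were fewest on the stiff plate.

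Gli1 encodes a zinc finger factor that both carries out hedgehog signalling and is switched on by it, so its level is a common readout of the pathway. Reads numbered 9 on the soft plate, 12 on the intermediate and 8 on the stiff plate, with a stiff to soft ratio of -0.15 (-1.74 to 1.38). No difference was detectable at this depth. Of the ligands, Shh had no read in any library, and Ihh and Dhh had at most 9 reads. The receptor Ptch1, also a target of the pathway, had 789, 867 and 755 normalized counts, with a stiff to soft ratio of -0.06 (-0.21 to 0.08), and the transducer Smo had 4794, 4491 and 4101, with a ratio of -0.23 (-0.29 to -0.16). With the trend in length and GC content removed, the stiff to soft ratios of Gli1, Ptch1 and Smo were -0.49, -0.54 and -0.55, outside the counting intervals of Ptch1 and Smo. Of the 16 hedgehog genes listed, 11 had a mean of at least 10, and none of them passed the size rule in any comparison. The shares of all 11873 genes that passed were 3.6% (stiff to soft), 0.168% (intermediate to soft) and 1.25% (stiff to intermediate). None of 11 is near these shares.

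Within that list Gas1 and the other GLI factors lay on opposite sides of 0 between stiff and soft. Gas1, a co-receptor that helps bind the ligand, was the most abundant by counts, at 13427, 14086 and 9196 normalized counts, with a stiff to soft ratio of -0.55 (-0.59 to -0.51). Gli2 and Gli3, the factors that act first on a hedgehog signal, had ratios of 0.94 (0.37 to 1.57) and 0.52 (0.30 to 0.74), and Kif7, a kinesin that regulates them, of 0.84 (0.42 to 1.29). After subtraction of the length and GC trend the 3 values were 0.38, 0.07 and 0.37, and Gas1 stood at -0.67. The median of the 11 genes was -0.06 as deposited, with 5 higher and 6 lower, and -0.29 with the trend subtracted.

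**Figure D5:**
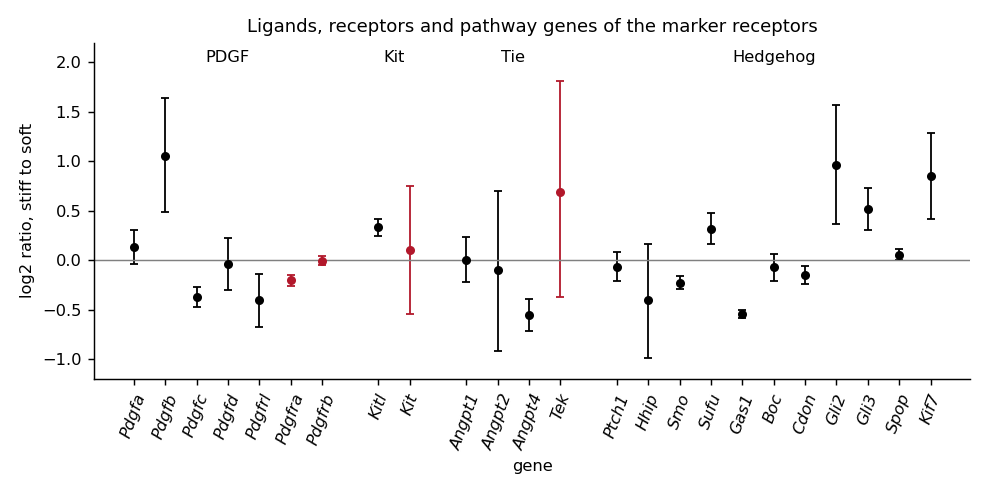
Stiff to soft log2 ratios without a pseudocount (vertical axis) of ligands, receptors and pathway genes with a mean of at least 10, with exact 95% counting intervals; red points are members of the marker set. Pdgfb has the highest value, 1.05, Gas1 and Angpt4 have the lowest, both near -0.55, and the points lie on both sides of 0 in the PDGF, Tie and hedgehog groups.

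In the gut, FOXL1-marked telocytes are known as a source of Wnt, R-spondin, BMP and FGF signals and of BMP inhibitors. Of 16 such genes listed, 15 had a mean of at least 10, and between stiff and soft 3 of these were higher and 12 lower, with a median of -0.26 beside 0.00 over all genes of that level. Of the lower ones Wnt2b, Wnt5a, Rspo1, Bmp4 and Chrd had counting intervals that include 0. None of the 11 with a mean of at least 50 passed the size rule there, which is near the share of 3.6% of all 11873 genes. Fgf7, a growth factor for epithelium, was the most abundant by counts, at 16337, 15568 and 11152 normalized counts on soft, intermediate and stiff plates, with a stiff to soft ratio of -0.55 (-0.59 to -0.52). Wnt5a, a Wnt of the noncanonical branch, stood at 4491, 4286 and 4457, with a stiff to soft ratio of -0.01 (-0.07 to 0.05). Bmp5 had a stiff to soft ratio of -0.40 (-0.51 to -0.29), the BMP inhibitor Grem1 of -0.43 (-0.50 to -0.36) and the R-spondin Rspo3 of -0.30 (-0.47 to -0.13). Bmp2 was highest on the intermediate plate, at 314, 442 and 177 normalized counts, and its stiff to soft ratio was -0.82 (-1.10 to -0.55). Alone in the list it passed the size rule between stiff and intermediate, at -1.31 (-1.58 to -1.06), beside 1.25% of all 11873 genes. Wnt4 had the highest ratio of the 15 between stiff and soft, 1.09 (0.39 to 1.88), and stood at 1.32 (0.62 to 2.15) between stiff and intermediate, from 24, 22 and 52 reads; its mean of 32.9 normalized counts is under the minimum of the size rule. Subtraction of the length and GC trend left the list's stiff to soft median at -0.26, with 2 higher and 13 lower, and took Fgf7 to -0.35, Bmp5 to -0.26, Rspo3 to -0.19 and Wnt4 to 0.75.

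A further 15 genes used to describe telocytes or interstitial cells were listed, of which 14 had a mean of at least 10. Between stiff and soft 9 of them were higher and 5 lower, with a median of 0.20. None of the 12 with a mean of at least 50 passed the size rule in any comparison. That is near the shares of all 11873 genes, 3.6% (stiff to soft), 0.168% (intermediate to soft) and 1.25% (stiff to intermediate). Nos2, the inducible nitric oxide synthase, had 29, 80 and 43 reads and a ratio of 1.31 (0.71 to 2.01) between intermediate and soft, the largest in this list among genes averaging 10 or more, but its mean of 49.7 normalized counts is under the minimum of the rule. Vim, the intermediate filament of mesenchymal cells, had 94005, 103009 and 111935 normalized counts on soft, intermediate and stiff plates. Thy1, a surface protein of sublining fibroblasts in the synovium, had a ratio of 0.37 (0.33 to 0.41). Eng, a TGF-beta co-receptor, had the highest of these 12, 0.86 (0.77 to 0.94), or 0.65 with the trend subtracted. Cdh11, the cadherin that joins synovial fibroblasts, had the lowest, -0.65 (-0.70 to -0.60), from 7320, 6772 and 4666 normalized counts. Pecam1, a marker of endothelium, had at most 13 reads. Of the kinases in the receptor family of Pdgfra, Pdgfrb and Kit, the other one with reads was Csf1r, one of the macrophage genes above, at 1267, 1725 and 3359 normalized counts, while Flt3 had no read.

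Levels of different genes were compared per kilobase of canonical transcript. In normalized counts per kilobase Pdgfrb had 1430 to 1545 over the 3 libraries, Pdgfra 776 to 955, Cd34 95.1 to 129, Foxl1 68.6 to 87.9, Kit 7.34 to 8.57, Efhd1 1.61 to 5.36, Tek up to 4.36 and Gli1 2.01 to 2.77. These are ranges of point values. Those of Pdgfrb, Pdgfra, Cd34 and Foxl1 do not overlap each other or those below, while Efhd1, Tek and Gli1 overlap and have no order. The counting intervals of Cd34 and Foxl1 did overlap on the soft plate, at 83.2 to 108 and 77.0 to 100. They also overlapped on the intermediate plate, at 86.5 to 111 and 75.7 to 97.5. The range of Kit lay above those of Efhd1, Tek and Gli1. Its counting interval on the soft plate, 5.73 to 10.8, overlapped that of Efhd1, 2.57 to 9.86. On the intermediate plate that of Kit, 5.27 to 9.96, overlapped those of Efhd1, 0.800 to 5.75, and Tek, 2.63 to 6.35. Per kilobase of all annotated exons merged Kit, at 4.08 to 4.76, overlapped Efhd1, at 1.23 to 4.10, in point values too. The order of Cd34 and Foxl1 also depends on the length used: per kilobase of all annotated exons merged, which is 11961 bases for Cd34, it had 19.6 to 26.6 and Foxl1 stayed at 68.6 to 87.9. tdTomato has no transcript in the annotation and was not placed in this order. Among genes with a read, Pdgfrb lay above 93.4% to 94.0%, Pdgfra above 88.1% to 90.3%, Cd34 above 58.8% to 61.7% and Kit above 30.5% to 31.5%.

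Set against the label of the cells, the markers were thus unequal. Cd34, Pdgfra, Pdgfrb and Foxl1 were present at 181 reads or more in every library, and Efhd1, Gli1 and Tek had at most 22. Of 8 general genes of fibroblasts, the lowest was Lum, at 787, 607 and 614 normalized counts on the soft, intermediate and stiff plates, and the highest by mean count was Col1a1, at 78648, 110715 and 151834. Between stiff and soft 5 of the 8 were higher and 3 lower, with a median of 0.20. The member Pdgfra is 1 of the 8 and 1 of the 3 lower. Fn1, the gene of fibronectin, alone passed the size rule, at 1.08 (1.06 to 1.10), beside 3.6% of all 11873 genes. The matrix proteoglycan genes Dcn and Lum had ratios of -0.44 (-0.50 to -0.38) and -0.36 (-0.51 to -0.20). Subtraction of the length and GC trend took Fn1 to 0.49, under the rule, Col1a1 from 0.95 to 0.37, Dcn to -0.27 and Lum to -0.22, and left 4 genes higher and 4 lower, with a median of 0.02. Of 8 mural cell genes, Higd1b had no read and Kcnj8 and Abcc9 had at most 13 reads, while Cspg4, at 1642, 2496 and 2376, and Notch3, at 529, 600.5 and 512 normalized counts, were the highest. Of 5 genes of cartilage and bone cells, 4 were higher and 1 lower between stiff and soft, with a median of 0.38, or 0.16 without the trend. Col2a1, the collagen of cartilage, alone passed the size rule there, at 1.46 (1.23 to 1.70), and stood under it, at 0.86, without the trend. Acan, the proteoglycan of cartilage, had 22, 53 and 64 reads and a ratio of 1.50 (0.82 to 2.31), or 0.91 without the trend, at a mean of 46.0 under the minimum of the rule. Sp7, a factor of bone-forming cells, had 1407, 1501 and 749.6 normalized counts and a stiff to soft ratio of -0.91 (-1.04 to -0.78), and only just passed the rule, downward, between stiff and intermediate, with an interval from -1.13 to -0.87.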

How the data were processed

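The 3 deposited files were identical copies of 1 table of 56833 genes and 3 columns, each column titled as 1 sample. Per the submitters' processing notes, the tools were bcl2fastq 2.20.0, STAR 2.7.9a, featureCounts of Subread 2.0.1 and DESeq2 1.34.0, with the build GRCm39; the annotation and strand setting are not given in the sources used here. The deposited signal values are counts divided by a size factor: 100% of values were whole multiples (tolerance 1e-06) of the column's smallest, which gave the reads. Count tests (edgeR, DESeq2) need replicates and were not made, so no p-value is given.

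The members and lists were chosen with earlier results of these data known. Genes named are the members, the lists, and for each member with a mean of at least 50 the 3 with the nearest pattern; unnamed gene models and mitochondrial genes were left out there. A gene passed the size rule at a log2 ratio of 1 and a mean of 50; list medians used a mean of 10. Lengths came from GENCODE M39 canonical transcripts, matched by symbol or identifier for 98.3% of 11873 genes. The length and GC trend was a robust local linear fit over 300 neighbours. Other pseudocounts, scalings (total, TMM by edgeR 4.0.16, upper quartile), minimum means and thresholds were alternatives. The counting, fit and intervals were tested on simulated data. Python 3.11.15, numpy 2.4.6, pandas 2.3.3 and scipy 1.17.1 were used.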

Additional observations from a re-analysis of the deposited data

How the results depend on the processing

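There is 1 library per stiffness, so leaving out a replicate was not possible. No paired analysis was possible because each group has 1 sample. The ratio of tdTomato stayed inside its counting interval under 2 other pseudocounts and 3 scalings (1.62 to 1.71 between stiff and soft); it has no transcript in the annotation, so the trend was not subtracted from it. Of 24 ratios of the other members, 19 stayed inside their intervals under every alternative and 5, all of Pdgfra or Pdgfrb, did not. The intervals of Efhd1, Kit, Gli1 and Tek are wide, so that theirs stayed inside says little. The stiff to soft ratio of Efhd1 ran from -1.70 to -0.63 over the pseudocounts, inside an interval from -4.24 to 0.22. Only 1 ratio changed sign, Pdgfrb between intermediate and soft, at -0.05 with the trend subtracted. The number of members past the size rule, 1, 0 and 1 between stiff and soft, intermediate and soft, and stiff and intermediate, became 2 (Efhd1 added) without a minimum mean between stiff and soft, 0 between stiff and soft and between stiff and intermediate at a log2 ratio of 2, and 1 between intermediate and soft at 0.5. Genes past the rule, 428, 20 and 148 in that order, were 822, 215 and 451 with a mean of 10, 5827, 3646 and 3904 with no minimum, 238, 8 and 72 with a mean of 200, 1850, 546 and 1050 at 0.5, and 17, 1 and 8 at 2. A pseudocount of 10 gave 10 between intermediate and soft. The merged-exon length was chosen after seeing the data. Depth limits Efhd1, Gli1, Tek and Kit.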
